A study of Rattus norvegicus with 24 samples.

Results

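Periaxin (Prx), peripheral myelin protein 22 (Pmp22), Egr2, Erbb3 and Ngfr are genes known from Schwann cells and the myelin of peripheral nerve, and their course after clip compression of the rat spinal cord is described here. These 5 genes were taken by symbol, each represented by the ProbeSet that carries the gene as its only symbol and has the highest mean over the 24 arrays, out of 14218 genes represented in the same way. RNA from the injury epicenter of the thoracic cord was measured on 1 whole-genome rat array per animal. All animals were female Wistar rats with a laminectomy over T6 to T8. Injured rats in addition had a 35 g aneurysm clip closed on the cord at T7 for 1 min, and different rats were taken on days 1, 3, 7, 14 and 56 (8 weeks) after it, 4 rats on each day. The sham group was 4 rats with the laminectomy and no clip, and the labels do not give the day on which they were taken. A 5 mm stretch of cord was used, and the sources do not say whether roots or meninges were removed from it.

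Schwann cells wrap the axons of peripheral nerves and roots, and they are not a normal cell of the intact cord parenchyma. After spinal cord injury they are known to enter the lesion or to form there from precursors of the cord, and some of them make peripheral myelin around central axons. Axonal neuregulin 1 acts on Schwann cells through Erbb3 paired with Erbb2, the transcription factor Egr2 (Krox20) drives the myelin program, Pmp22 and periaxin are built into compact and non-compact peripheral myelin, and Ngfr, the p75 neurotrophin receptor, marks immature and denervated Schwann cells. None of the genes is limited to this cell: Egr2 is also made by macrophages, Ngfr by neurons and meningeal cells, Pmp22 by fibroblasts and epithelia, and Erbb3 by oligodendrocytes.

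Promoter sequence is shown for the genes for which it was available, and none was available here for Erbb3 and Ngfr. RefSeq entries (GRCr8) gave the 250 bases before an annotated transcript start for Prx, Pmp22 and Egr2. Prx lies at chr1:91912669-91934754, Pmp22 at chr10:48294932-48324941, Egr2 at chr20:21050149-21055201, Erbb3 at chr7:1579079-1600379 and Ngfr at chr10:81012077-81030305. The windows are chr1:91914171-91914420 (plus strand) for Prx, chr10:48294682-48294931 (plus strand) for Pmp22 and chr20:21054442-21054691 (minus strand) for Egr2, and those of Prx and Egr2 lie inside the outer bounds of the gene. Capitals mark motif matches, each line reads 5′ to 3′ along the gene, and its last base is next to the start.
Prx: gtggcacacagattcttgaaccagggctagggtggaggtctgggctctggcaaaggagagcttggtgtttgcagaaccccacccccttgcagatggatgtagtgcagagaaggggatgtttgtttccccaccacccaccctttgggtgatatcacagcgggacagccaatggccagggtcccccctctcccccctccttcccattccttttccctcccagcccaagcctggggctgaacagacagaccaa
Pmp22: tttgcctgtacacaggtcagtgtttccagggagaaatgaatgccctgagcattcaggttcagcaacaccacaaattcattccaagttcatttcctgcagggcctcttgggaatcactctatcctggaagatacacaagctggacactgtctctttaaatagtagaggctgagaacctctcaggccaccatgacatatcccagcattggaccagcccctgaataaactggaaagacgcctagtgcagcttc
Egr2: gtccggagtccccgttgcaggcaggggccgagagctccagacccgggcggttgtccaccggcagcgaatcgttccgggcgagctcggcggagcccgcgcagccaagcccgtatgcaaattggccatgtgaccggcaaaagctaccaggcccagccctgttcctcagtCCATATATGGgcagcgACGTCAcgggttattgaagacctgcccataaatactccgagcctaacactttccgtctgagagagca

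The motifs searched on both strands were the CArG box, GCGTGGGCG (a site of the Egr family), TGACGT (the core of the cyclic AMP response element) and ACAAAG (a site of the Sox family). The Egr2 window held a CArG box 83 to 74 bases before the start and a reverse-strand TGACGT at 67 to 62 bases, without overlap between them. No match of the 4 motifs was found in the Prx and Pmp22 windows. Among 33469 rat promoter windows of this length, 1.5% held the CArG box, 0.478% GCGTGGGCG, 6.95% TGACGT and 16.3% ACAAAG.

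Values below are the deposited log2 expression values, on which a difference of 1 is a doubling. Changes are injured minus sham or later minus earlier day, with the SE of limma's fit over all 24 arrays and p-values adjusted by Benjamini-Hochberg over all ProbeSets with 1 symbol, called at 0.05. Within a group, correlations between arrays ran between 0.973 and 0.996 and the array medians between 4.29 and 4.45. Genes of other cell types moved with the groups. Among 16 central myelin and oligodendrocyte genes 12, 9, 5, 6 and 10 were down-regulated on days 1, 3, 7, 14 and 56. None was up-regulated on any day. Of all genes 20.4%, 16.7%, 30%, 16.3% and 15.9% were down-regulated on those days. The 5 of day 7 became 3 after median centring of the arrays, and the 6 of day 14 became 3 after quantile normalization. Mean levels of this list were 10.27 to 11.85 in injured rats and 11.72 to 11.91 in sham rats. Of 15 macrophage and microglia genes 14, 10, 13, 13 and 12 were up-regulated on those days, with mean list levels of 9.57 to 11.71 in injured rats and 6.68 to 8.06 in sham rats. The skeletal muscle gene Acta1 stood at 8.38 and 8.73 in day 7 rats 1 and 3 and at 9.79 in day 14 rat 4, against 2.83 to 4.75 in sham rats, but it was not called on either day (limma adjusted p = 0.112 and 0.549). Of the 12 measured muscle genes 0, 0, 1, 0 and 0 were up-regulated and 3, 0, 3, 3 and 3 down-regulated on days 1, 3, 7, 14 and 56.

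Of the 5 genes, 2 were up-regulated against sham on day 1 (28.9% of all genes were), 2 on day 3 (23.7%), 2 on day 7 (23.5%), 3 on day 14 (15.8%) and 3 on day 56 (16.1%). None of the 5 was down-regulated on any day in this fit, while 20.4%, 16.7%, 30%, 16.3% and 15.9% of all genes were on days 1, 3, 7, 14 and 56. Under median centring of the arrays the share of up-regulated genes among all genes called on day 7 was 64.6%, and without it 43.9%. Every injured rat lay above every sham rat for 2 genes on day 1 (27.6% of all genes), 2 on day 3 (23.1%), 3 on day 7 (20.2%), 4 on day 14 (19.7%) and 3 on day 56 (18.6%). The median change of the 5 genes was 0.20, 0.45, 0.43, 0.68 and 0.89 on days 1, 3, 7, 14 and 56, while that of all genes was 0.01, −0.04, −0.05, 0.03 and −0.02. The 5 comparisons share the sham rats. Egr2 and Ngfr were called on days 1 to 7. On day 14 Egr2, Ngfr and Pmp22 were called, and on day 56 Egr2, Pmp22 and Prx. A call on 1 day and not on another does not show a difference between days. Pmp22 did not differ between days 14 and 7 (limma adjusted p = 0.418), nor Prx and Ngfr between days 56 and 14 (0.346 and 0.413). Prx and Pmp22 did differ between days 56 and 1. The second ProbeSet of Pmp22 was called against sham on day 7 already.

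**Figure D1:**
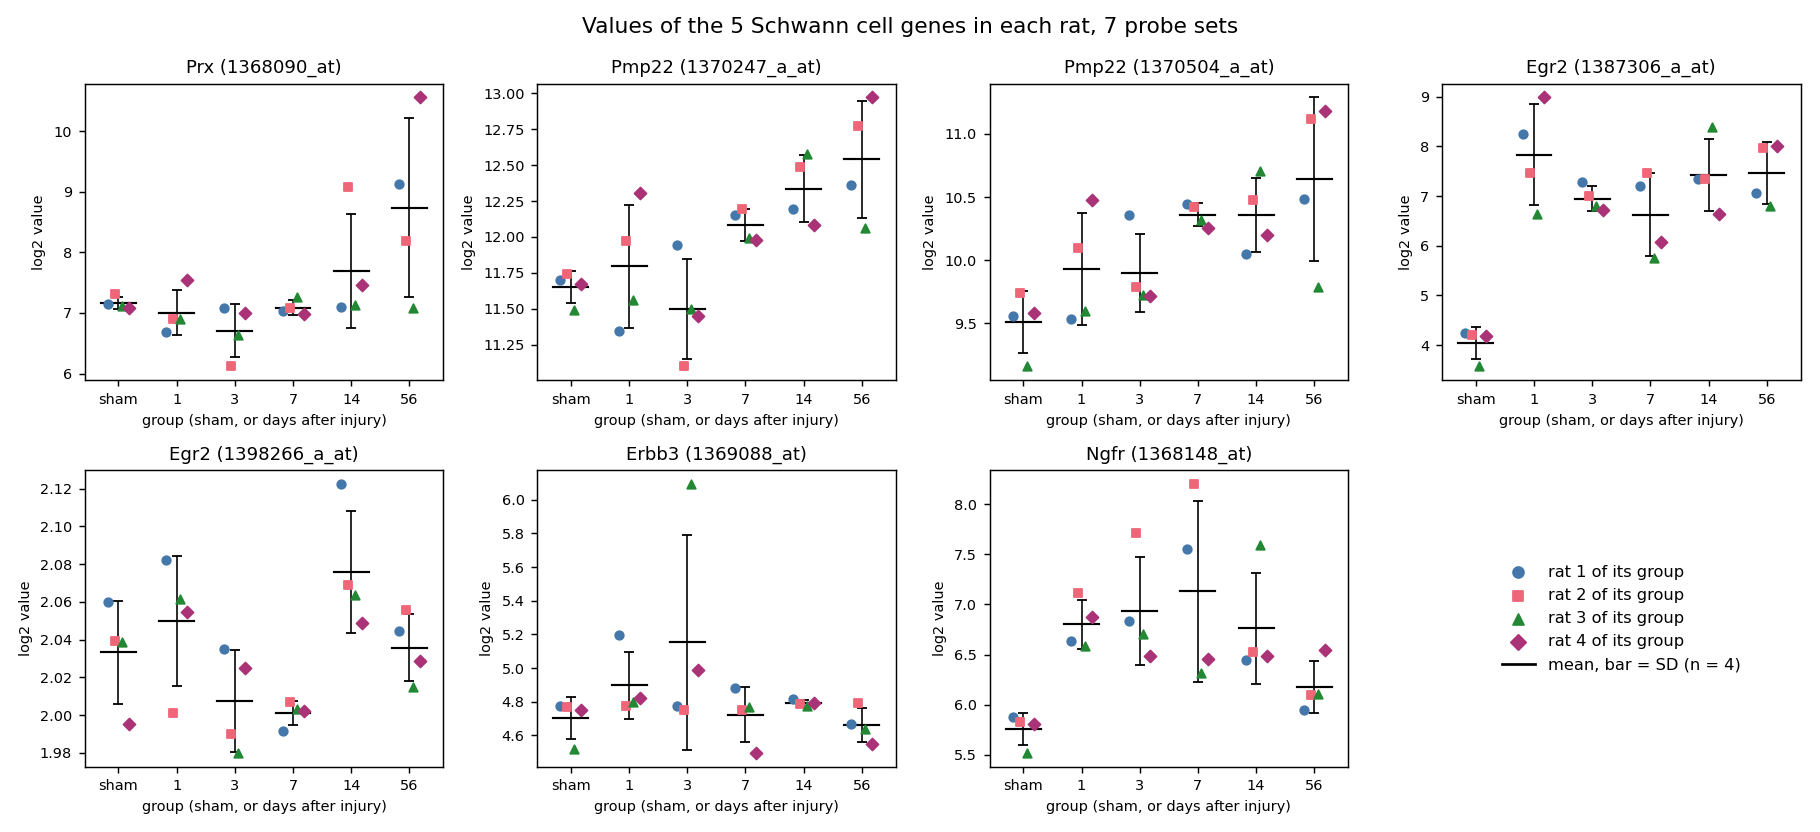
Log2 value of each of the 7 ProbeSets of the 5 genes (y axis) in each rat, by group (x axis, sham and then days after injury). Points are single rats, horizontal lines are means and bars are SD (n = 4). Egr2 (1387306_a_at) is above sham in every injured rat, Pmp22 is highest on day 56 and Prx on day 56 spreads between 7.08 and 10.56.

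Periaxin, the PDZ protein that ties the Schwann cell membrane to the dystroglycan complex and helps to stabilise peripheral myelin, was up-regulated on day 56 only. Prx (1368090_at) stood at 9.14, 8.18, 7.08 and 10.56 in day 56 rats 1 to 4, against 7.14, 7.31, 7.12 and 7.08 in sham rats. Rats 1, 2 and 4 of day 56 were above all sham rats, while rat 3 was at the level of the lowest sham rat, so the groups overlapped. The mean was 8.74 ± 1.48 on day 56 and 7.16 ± 0.10 in sham rats (SD, n = 4 each), a log2 fold change of 1.58 (SE 0.52, 2.99-fold, limma adjusted p = 0.0261). In bulk tissue, more cells of a type and more RNA per cell cannot be told apart. The call rested on single rats: without day 56 rat 4 the change was 0.97 (limma adjusted p = 0.12), without day 56 rat 1 it was 1.45 (adjusted p = 0.072), and it also missed the threshold without sham rat 1, 3 or 4 (adjusted p 0.0517 to 0.0536). A fit of the day 56 and sham groups alone gave the same change with an adjusted p of 0.136.

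On the earlier days Prx did not differ from sham in the test. It stood at 6.69, 6.90, 6.89 and 7.54 on day 1, at 7.08, 6.12, 6.63 and 7.0 on day 3 and at 7.03, 7.07, 7.26 and 6.98 on day 7, with changes of −0.16, −0.45 and −0.08 against sham (SE 0.52 each, limma adjusted p = 0.951, 0.472 and 0.909). On day 14 the 4 rats stood at 7.09, 9.08, 7.14 and 7.47, and only rat 2 was far above the sham rats. The change of that day was 0.53 (adjusted p = 0.464). Between days, Prx was 1.74 higher on day 56 than on day 1 (SE 0.52, limma adjusted p = 0.0157, 32.3% of all genes called in either direction), a difference that fell to 1.13 without day 56 rat 4 (adjusted p = 0.0651). The step between days 56 and 14 was 1.05 (adjusted p = 0.346), a comparison in which only 0.338% of all genes were called. In order of mean level Prx ran day 3, day 1, day 7, sham, day 14 and day 56, and the ranges of neighbours in this order overlapped.

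Pmp22, a small tetraspan protein of compact peripheral myelin that is sensitive to gene dosage, was up-regulated on days 14 and 56. The ProbeSet 1370247_a_at stood at 12.36, 12.77, 12.06 and 12.97 in day 56 rats and at 12.19, 12.48, 12.58 and 12.08 in day 14 rats, against 11.70, 11.74, 11.49 and 11.68 in sham rats. All 8 of these injured rats lay above all sham rats. The means were 12.54 ± 0.41 on day 56, 12.33 ± 0.23 on day 14 and 11.65 ± 0.11 in sham rats (SD, n = 4 each). The changes were 0.89 on day 56 (SE 0.21, 1.85-fold, limma adjusted p = 0.0026) and 0.68 on day 14 (SE 0.21, 1.60-fold, adjusted p = 0.0169). The call of day 14 was lost without sham rat 3 (0.63, adjusted p = 0.0504) or day 14 rat 3 (0.60, adjusted p = 0.0627).

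Before day 14 the same ProbeSet changed by 0.14 on day 1, −0.15 on day 3 and 0.43 on day 7 (SE 0.21 each, limma adjusted p = 0.725, 0.546 and 0.0866). The day 7 rats, at 12.15, 12.20, 11.99 and 11.98, were nevertheless all above the sham rats, whereas the rats of day 1 (11.34, 11.97, 11.56 and 12.30) and day 3 (11.94, 11.10, 11.50 and 11.45) overlapped them. Pmp22 was 0.75 higher on day 56 than on day 1 (limma adjusted p = 0.0102) and 0.58 higher on day 7 than on day 3 (adjusted p = 0.0438, with 29.9% of all genes called). The day 7 to day 3 difference passed the threshold with day 3 rat 1 left out, but not with any other rat of either group left out (0.45 to 0.62, adjusted p 0.0549 to 0.157). It was also 0.59 with an adjusted p of 0.14 without the 3 arrays that carried Acta1. The order of the means was day 3, sham, day 1, day 7, day 14 and day 56, again with overlapping neighbours.

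A second ProbeSet of Pmp22, 1370504_a_at, gave changes of 0.42, 0.39, 0.85, 0.85 and 1.13 on days 1, 3, 7, 14 and 56 (SE 0.26, limma adjusted p = 0.231, 0.218, 0.0145, 0.0182 and 0.00238). It stood at 10.48, 11.12, 9.79 and 11.18 in day 56 rats, against 9.56, 9.74, 9.16 and 9.59 in sham rats, and the ranges did not overlap on days 7, 14 and 56. Both ProbeSets thus ordered day 56 highest, and they differed in that the second passed the threshold on day 7 already. On day 56 rats 2 and 4 were the highest of the group in both ProbeSets and rat 3 the lowest, as it was for Prx.

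Egr2, the zinc finger factor that Schwann cells need to start and keep myelin and that is also an immediate early gene and a gene of activated macrophages, showed the largest change of the 5 genes on every day. The ProbeSet 1387306_a_at stood at 8.25, 7.46, 6.64 and 8.99 on day 1 and at 7.06, 7.96, 6.79 and 8.01 on day 56, against 4.24, 4.21, 3.57 and 4.18 in sham rats. The rats of day 3 (7.29, 7.0, 6.80 and 6.71), day 7 (7.19, 7.46, 5.76 and 6.07) and day 14 (7.34, 7.34, 8.39 and 6.64) were likewise all above the sham rats. The sham mean was 4.05, below the array medians of the sham rats (4.39 to 4.41), so the folds start from a low level. The changes were 3.79, 2.90, 2.57, 3.38 and 3.41 on days 1, 3, 7, 14 and 56 (SE 0.47 each), or 13.8-, 7.46-, 5.94-, 10.4- and 10.6-fold. Limma's adjusted p-values were 1.61e-06, 6.16e-05, 0.000233, 2.18e-05 and 1.96e-05 in the same order, and the call held under each alternative run and with each rat left out. Taking the mean of both ProbeSets of Egr2 lowered the changes to 1.27 to 1.90 on the 5 days, still called. The second ProbeSet, described below, was flat, so this averaging shrank the change and its spread alike and is no separate check.

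Between days, Egr2 was 1.22 lower on day 7 than on day 1 (SE 0.47, limma adjusted p = 0.0652, 21.2% of all genes called) and 0.89 lower on day 3 than on day 1 (adjusted p = 0.132, 35.4% of all genes called). Both differences passed the threshold without day 1 rat 3, at −1.62 (adjusted p = 0.0233) and −1.29 (adjusted p = 0.0401), and that of day 7 did so without day 7 rat 2 as well (−1.50, adjusted p = 0.0353). Without day 1 rat 4 they were smaller, −0.83 for day 7 (adjusted p = 0.199) and −0.50 for day 3 (adjusted p = 0.392). Day 14 was 0.81 higher than day 7 (adjusted p = 0.226, 28% of all genes called) and 0.41 lower than day 1 (adjusted p = 0.538, 27.9% of all genes called). The means ran in the order sham, day 7, day 3, day 14, day 56 and day 1, and only the step between day 7 and sham had no overlap. A second ProbeSet named for Egr2, 1398266_a_at, lay between 1.98 and 2.12 on all 24 arrays. That is below the mean of the 27 bacterial control ProbeSets without a target, 2.62 to 2.91 per array, and its differences are not read as expression. The high macrophage list stands beside these values on all 5 days, and its part in the Egr2 change was not tested.

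Ngfr was up-regulated on days 1 to 14 and not called on day 56. The ProbeSet 1368148_at stood at 6.63, 7.11, 6.59 and 6.87 on day 1, at 6.83, 7.71, 6.70 and 6.49 on day 3 and at 7.56, 8.20, 6.31 and 6.46 on day 7, against 5.88, 5.83, 5.52 and 5.80 in sham rats. On day 14 the rats stood at 6.44, 6.52, 7.59 and 6.48, and on day 56 at 5.95, 6.10, 6.11 and 6.55. All 20 injured rats were above all sham rats, with the narrowest gap on day 56. The changes were 1.04, 1.18, 1.38, 1.00 and 0.42 on days 1, 3, 7, 14 and 56 (SE 0.35 each, limma adjusted p = 0.0193, 0.0124, 0.00411, 0.037 and 0.464), or 2.06-, 2.26-, 2.59-, 2.00- and 1.34-fold.

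The day 7 change of Ngfr held with each rat left out, and the others were closer to the threshold. On day 14 the call was lost without any one sham rat (0.92 to 1.04, adjusted p 0.0555 to 0.0936) and without day 14 rat 3 (0.73, adjusted p = 0.163). It was lost on day 1 without sham rat 3 (0.96, adjusted p = 0.0524) or day 1 rat 2 (0.94, adjusted p = 0.0562), and on day 3 without day 3 rat 2 (0.92, adjusted p = 0.0575). Day 56 was 0.62 lower than day 1 and all its rats were below those of day 1, but the difference did not pass the threshold (SE 0.35, limma adjusted p = 0.218). No other difference between days was called for Ngfr. Its means ran in the order sham, day 56, day 14, day 1, day 3 and day 7, with no overlap only between day 56 and sham.

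Erbb3, the receptor that binds neuregulin and signals through its partner Erbb2, was not called on any day. Its ProbeSet 1369088_at stood between 4.49 and 5.20 in 23 of the 24 rats and at 6.09 in day 3 rat 3. Most of these values are near the array medians of 4.29 to 4.45, and whether the ProbeSet detects the transcript here was not tested. The changes were 0.20, 0.45, 0.02, 0.09 and −0.04 on days 1, 3, 7, 14 and 56 (SE 0.20 each, limma adjusted p = 0.527, 0.0804, 0.936, 0.754 and 0.92). On day 14 the rats, at 4.78 to 4.82, lay just above the sham rats, at 4.52 to 4.78, and on the other days the groups overlapped. The day 3 change passed the threshold without day 3 rat 1 (0.58, adjusted p = 0.0334) or day 3 rat 2 (0.58, adjusted p = 0.035), and without day 3 rat 3, the highest rat, it was 0.14 (adjusted p = 0.315).

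**Figure D2:**
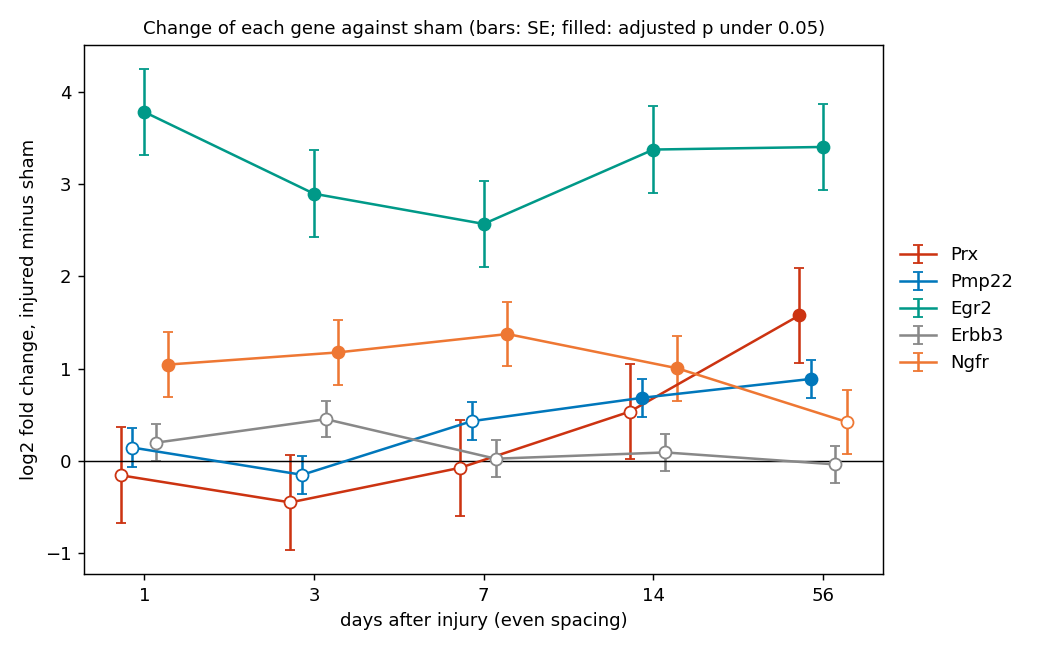
Log2 fold change of each of the 5 genes (y axis, injured minus sham) on days 1, 3, 7, 14 and 56 (x axis, evenly spaced). Points are limma estimates with SE bars, and filled points passed an adjusted p of 0.05. Egr2 is the highest on every day, Ngfr is filled until day 14, and Pmp22 and Prx reach 0.89 and 1.58 on day 56.

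Other genes of peripheral myelin and its nodes were read from a list of 23, of which 19 were measured. Of the 19, 7, 5, 7, 7 and 7 were up-regulated and 3, 7, 2, 1 and 1 down-regulated on days 1, 3, 7, 14 and 56, with a median change of 0.50 on day 56, when the median of all genes was −0.02. Pmp2, a fatty acid binding protein of peripheral myelin that astrocytes also make, was up-regulated on all 5 days. It stood at 7.38, 7.92, 7.45 and 8.24 in day 14 rats, against 5.57, 5.87, 5.01 and 5.73 in sham rats, and all injured rats of that day were above the sham rats. Its changes were 1.53, 0.87, 1.75, 2.20 and 1.00 (SE 0.33, limma adjusted p = 0.000624, 0.0451, 3e-04, 4.41e-05 and 0.0264).

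The remaining genes named by their number of called days are expressed in many cell types. Ezr (ezrin, in Schwann cell microvilli at the node), Litaf (a lysosomal protein altered in a demyelinating neuropathy) and Itgb1 (a laminin receptor subunit) were up-regulated on all 5 days, by 1.66 to 3.38, 1.15 to 2.12 and 1.03 to 1.47. Itga6, which pairs with Itgb4 in the laminin receptor of myelinating Schwann cells, was up-regulated on days 1, 7, 14 and 56 (0.61, 0.58, 0.83 and 0.98) and lower on day 3 (−0.41). Gjb1 (connexin 32), a gap junction protein of both Schwann cells and oligodendrocytes, was down-regulated by 0.98 on day 14 and by 1.62 on day 56 (SE 0.26, limma adjusted p = 0.00762 and 0.000108). Drp2, a dystrophin-related partner of periaxin, changed by 0.21 on day 56 (SE 0.49, adjusted p = 0.82). Genes that the count does not name, here and below, were picked after their values were seen.

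Some genes of the peripheral myelin and perineurial lists were, like Prx, highest in rat 4 of day 56. Which cells made them was not tested. Cdh1 (E-cadherin), which joins the layers of non-compact myelin, stood at 4.67, 5.29, 5.69 and 8.14 in day 56 rats, against 2.95, 4.77, 3.55 and 4.24 in sham rats, a change of 2.07 (SE 0.59, limma adjusted p = 0.0109). Rat 4 was far above the others, and rat 1 of day 56 was below the highest sham rat. Itgb4 stood at 9.54, 10.27, 9.67 and 11.11 on day 56, against 7.47, 9.53, 8.99 and 9.35 in sham rats, and its change of 1.31 was not called (SE 0.64, adjusted p = 0.141) although the ranges did not overlap.

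Moxd1, a copper monooxygenase-like protein of the perineurial list, stood at 3.43, 4.61, 3.30 and 5.66 on day 56, against 2.39, 2.56, 2.36 and 2.35 in sham rats, a change of 1.84 (SE 0.33, adjusted p = 0.000267) against sham values below the control ProbeSets. It was the only one of 8 measured perineurial genes that was up-regulated on day 56. Tenm2 was down-regulated on that day (−2.29), the other 6 were not called, and the mean level of the list was 6.18 to 6.81 in day 56 rats and 6.14 to 6.60 in sham rats. Cldn19, a claudin of Schwann cell junctions, was at 4.73 in day 56 rat 4, against 3.14 to 3.32 in the other day 56 rats and 3.15 to 3.22 in sham rats, and its change of 0.42 was not called (adjusted p = 0.215). Among the 5 genes, day 56 rat 4 had the highest value of its group for Prx, both ProbeSets of Pmp22, Egr2 (1387306_a_at) and Ngfr, and the lowest for Erbb3. Pmp2 was highest in rat 1 and Gjb1 in rat 2 of that day. Mrc1 of the macrophage list, Postn of the fibroblast list and Egr1, an immediate early gene, were highest in rat 4 too.

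**Figure D3:**
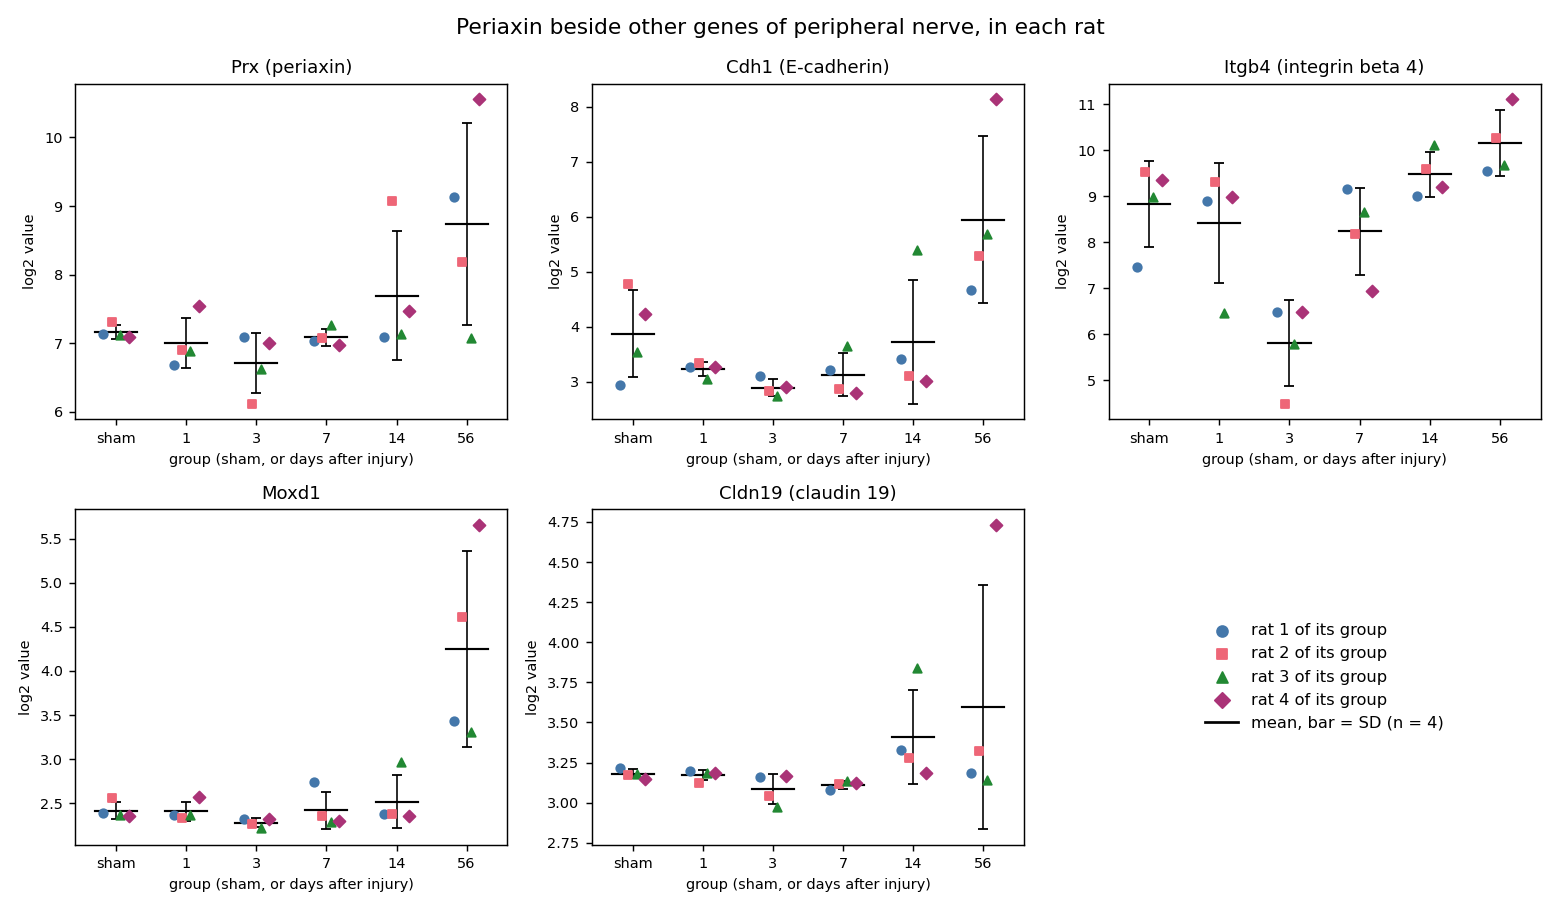
Log2 value (y axis) of Prx and of 4 genes of the peripheral myelin and perineurial lists in each rat, by group (x axis, sham and then days after injury). Points are single rats, lines are means and bars are SD (n = 4). In all 5 genes the highest point of day 56 is rat 4, while rat 3 is at sham level for Prx and above all sham rats for Cdh1, Itgb4 and Moxd1. Cdh1 and Cldn19 were picked after their values were seen, so the shared highest rat is a description and not a test. Pmp2 and Gjb1, not drawn here, were highest in rats 1 and 2 of day 56.

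Transcription factors and lineage genes of Schwann cells were read from a list of 20, of which 17 were measured. Of the 17, 4, 2, 3, 3 and 4 were up-regulated and 2, 2, 3, 0 and 1 down-regulated on days 1, 3, 7, 14 and 56, with medians between −0.04 and 0.07. The 3 down-regulated on day 7 became 1 after quantile normalization, after median centring or with a group mean of at least 5. Jun, which holds Schwann cells in the repair state and is induced in many injured cells, was up-regulated on all 5 days (0.87 to 1.46). Egr1, a relative of Egr2 and an immediate early gene, was up-regulated by 2.18, 2.56 and 1.30 on days 1, 3 and 56. Nab2, a co-factor of the Egr proteins, was up-regulated on days 1 and 7 (1.67 and 1.01) against a sham mean of 1.58, below the control ProbeSets, and Yy1, a regulator of Egr2 in Schwann cells, on days 1, 7, 14 and 56 (0.50, 0.55, 0.35 and 0.41).

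Sox10, which works with Egr2 in Schwann cells and is also expressed in oligodendrocytes, was down-regulated on day 56 only (−0.68, SE 0.20, limma adjusted p = 0.0132). Pou3f1 (Oct6), the factor of promyelinating Schwann cells, stood at 4.46, 5.31, 6.23 and 6.42 in day 14 rats, against 4.47, 4.40, 4.40 and 4.29 in sham rats. Rats 2, 3 and 4 were above all sham rats and rat 1 was within their range, and the change was 1.22 (SE 0.39, adjusted p = 0.0217). On day 56 it was 0.60 and not called (adjusted p = 0.297). Dhh, the Schwann cell hedgehog ligand, averaged 2.58 to 2.96 in the 6 groups, close to the control ProbeSets, and was not called on any day.

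The neuregulin and ErbB list had 18 measured genes of 20, of which 2, 3, 2, 1 and 1 were up-regulated and 5, 4, 8, 4 and 4 down-regulated on days 1, 3, 7, 14 and 56. The 8 down-regulated on day 7, when 30% of all genes were, include Erbb2 and Erbb4, which are read below as values only. They became 3 after quantile normalization or median centring, and 2 with a group mean of at least 5. Nrg1, the ligand whose axonal form sets myelin thickness in peripheral nerve, had the largest decrease. It stood at 3.65, 3.36, 3.66 and 3.16 on day 1 and at 4.26, 5.95, 5.86 and 3.33 on day 56, against 8.97, 8.49, 8.12 and 9.29 in sham rats. Only day 3 rat 1 (8.34) reached the sham range, and the changes were −5.26, −2.77, −3.91, −3.94 and −3.87 (SE 0.81, limma adjusted p = 2.07e-05, 0.0112, 0.000775, 0.000952 and 0.0011). Neuronal transcripts were lower in the same rats: 6, 3, 8, 6 and 8 of 15 motor and sensory neuron genes were down-regulated on days 1, 3, 7, 14 and 56, Chat among them on all days (−2.83 to −2.52), and their part in the Nrg1 change was not tested.

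Other genes of the list changed in both directions. Adam22, an axonal receptor of Lgi4, was down-regulated on days 1, 7, 14 and 56 (−4.97, −2.75, −2.67 and −2.13), and Lgi4, a protein that Schwann cells secrete and need for myelination in the mouse, on days 1 and 3 (−1.50 and −0.76). Bace1, a protease that activates neuregulin 1, was down-regulated on days 1, 3, 14 and 56 (−1.94, −1.57, −0.97 and −1.83), while Adam17, a protease that inhibits peripheral myelination in the mouse, was up-regulated on all 5 days (0.86 to 1.77). Hbegf, a ligand of the Egf receptor and Erbb4, was 1.80, 4.63 and 0.75 higher on days 1, 3 and 7, and all 4 rats of day 3 (10.66 to 12.07) were above the sham rats (6.53 to 6.82). Erbb4 and Erbb2 averaged 2.50 to 2.76 and 2.04 to 2.14 in the 6 groups, near or below the control ProbeSets, so their calls (Erbb4 −0.26 to −0.14 on all 5 days, Erbb2 −0.06 on day 7) are given as values only.

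The neurotrophin and p75 list had 17 measured genes of 22, with 2, 2, 1, 1 and 1 up-regulated and 6, 7, 7, 4 and 2 down-regulated on days 1, 3, 7, 14 and 56. Bdnf, a ligand of Ngfr, stood at 4.64, 6.69, 5.21 and 4.84 on day 3, against 3.46, 3.58, 2.48 and 2.97 in sham rats, with all rats of day 3 above the sham rats (2.22, SE 0.31, limma adjusted p = 1.2e-05). Against sham it was not called on any other day (changes of −0.23 to −0.01), and Ntf3 was not called against sham on any day. Lingo1, a partner of Ngfr in the receptor for myelin inhibitors, was down-regulated on days 1, 3, 7 and 14 (−2.49, −1.42, −1.45 and −0.95). Sorl1, of the sortilin family, was down-regulated on the same 4 days (−2.59, −1.26, −1.87 and −1.21), Maged1, which binds the inner part of Ngfr, on all 5 days (−0.72 to −0.39), and Ripk2, a kinase downstream of Ngfr and of innate immune receptors, was up-regulated on all 5 (0.62 to 0.90).

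**Figure D4:**
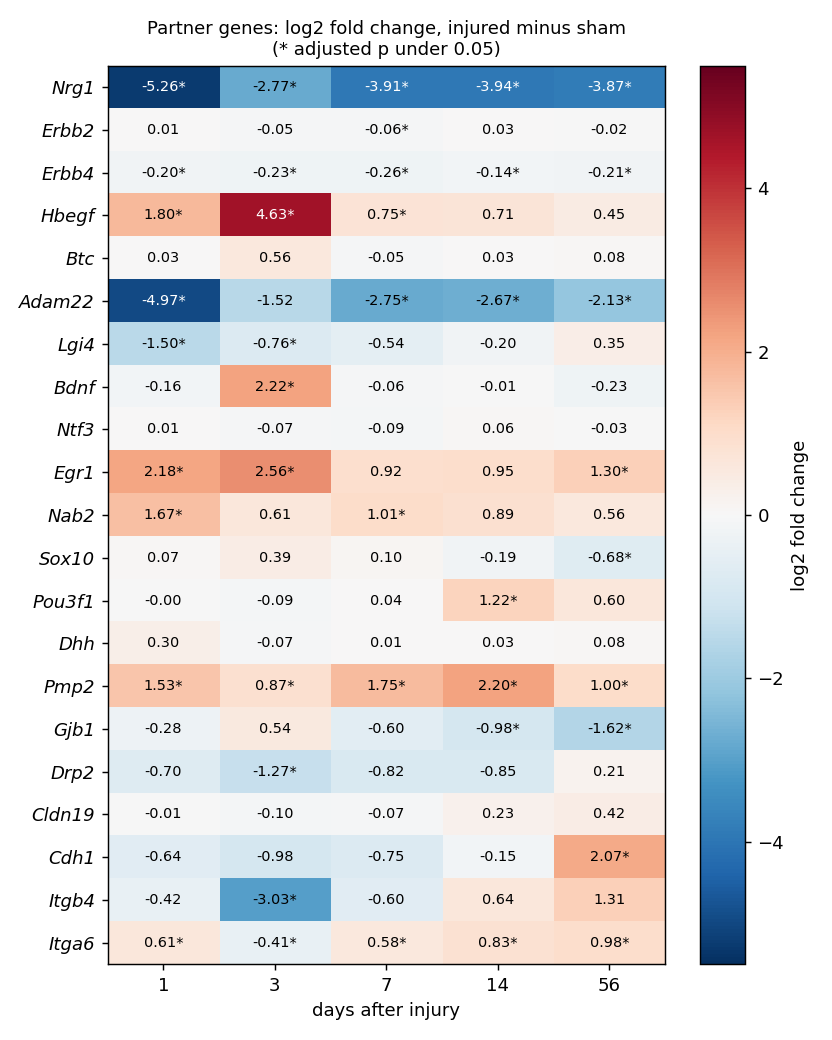
Log2 fold change (colour and printed value, injured minus sham) of 21 partner genes (rows) on days 1, 3, 7, 14 and 56 (columns), with an asterisk where the adjusted p was under 0.05. Nrg1 is lower and Pmp2 higher on all 5 days, and Cdh1 is higher on day 56 only.

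Genes with the nearest course were found by the root mean square difference of the 5 log2 fold changes, over the 5 days, for the 3 genes that changed by at least 1. Nearest to Prx were Wnt6 (0.19), Wnt16 (0.196) and Eppk1 (0.196). Wnt6 stood at 6.21, 6.09, 5.33 and 6.94 on day 56, against 3.91, 4.05, 4.31 and 4.47 in sham rats, and Eppk1, an epithelial plakin, at 4.34, 3.19, 3.27 and 3.61, against 1.99, 2.00, 2.02 and 2.10, levels below the control ProbeSets. Both were separate from sham on day 56, by 1.96 and 1.58 (limma adjusted p = 0.00108 and 2.09e-05), and both included the rat in which Prx was at sham level, while Wnt16 was not called (1.50, adjusted p = 0.0945). Nearest to Egr2 were Efemp2, a matrix protein (0.408), Pf4, a chemokine of platelets and macrophages (0.472), and Arpc1b, an actin nucleation subunit of blood cells (0.486). Nearest to Ngfr were Plpp1 (0.183), Erf (0.197) and Thg1l (0.198).

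Fibroblasts and meninges, another source of Pmp22 and Ngfr, were followed with 16 genes. Of these 8, 2, 7, 7 and 7 were up-regulated and 1, 9, 0, 0 and 0 down-regulated on days 1, 3, 7, 14 and 56, with mean list levels of 5.57 to 8.02 on day 3, 9.75 to 11.42 on day 14 and 9.26 to 10.59 on day 56, against 7.21 to 8.61 in sham rats. Lum and Col1a2, matrix genes of fibroblasts, were up-regulated on days 1, 7, 14 and 56 and down-regulated on day 3 (−4.54 and −2.02). Fn1 (fibronectin) was up-regulated on all 5 days (1.54 to 3.66), and Postn (periostin) on days 1, 3, 7 and 14 (7.44, 3.91, 7.69 and 5.66) but not on day 56 (0.87, limma adjusted p = 0.449). On day 3 the mean of the first ProbeSet of Pmp22 was 0.15 below sham and that of the second 0.39 above it, neither called, and Ngfr and Egr2 were called higher. The part of this list in the changes of Pmp22 and Ngfr was not tested.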

How the data were processed

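RNA of 24 spinal cords was hybridised to whole-genome Affymetrix rat arrays. The log2 values were deposited by the authors after GCRMA (affy 1.12.2, per the labels); per the methods, time points were pre-processed separately. Whether this holds for the deposited values could not be settled, and where it does, day and pre-processing cannot be told apart. The labels and the methods differ on the amount of RNA labelled. Of 31099 ProbeSets, 20832 carried 1 symbol, 436 several and 9831 none in the platform annotation, and 14218 genes were represented by the ProbeSet with the highest mean. One linear model with 6 groups was fitted with limma 3.58.1 (R 4.3.3, 18 residual degrees of freedom), with Benjamini-Hochberg adjustment over the 20832 ProbeSets in each comparison and a threshold of 0.05. The code was tested on simulated data. The genes and the 14 gene lists were chosen with earlier results of these data known; 27 of 223 listed genes were not analysed here. Up to 4 genes per list were named by their number of called days, ties by the largest change. Replicates are different rats, and 4 arrays per group limit the precision. Array values give no read depth. Alternatives were quantile normalization, median centring, a group mean of at least 5, the mean of a gene's ProbeSets, fits of 2 groups, moderation with a trend and robust settings, a test without moderation, a replicate block, leaving out each array, and, chosen after seeing the data, leaving out the 3 arrays with muscle transcripts. Figures were drawn with matplotlib 3.10.9 in Python 3.11.15.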

Additional observations from a re-analysis of the deposited data

Results flagged for a closer look

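Among 78 groups of 4 rats (13 ProbeSets in 6 groups), 1 rat stood apart from the other 3 of its group in 14, by a gap past Dixon's critical value (chance flags about 1 in 20 groups, but some of these genes were picked after their values were seen, so the rates are not compared). For the 5 genes these were Egr2 in sham rat 3 (3.573, the other sham rats at 4.18 to 4.24), Erbb3 in day 1 rat 1 (5.197, others 4.78 to 4.82) and in sham rat 3 (4.518, others 4.75 to 4.78), Ngfr in day 14 rat 3 (7.593, others 6.44 to 6.53) and the second ProbeSet of Pmp22 in day 3 rat 1 (10.36, others 9.72 to 9.79). Of the other genes followed rat by rat, Cldn19 stood apart in day 56 rat 4 (4.734) and day 1 rat 2 (3.125), Cdh1 in day 14 rat 3 (5.4), Itgb4 in day 1 rat 3 (6.466) and Nrg1 in day 3 rat 1 (8.339). Moxd1 did so in day 14 rat 3 (2.962), day 7 rat 1 (2.735), day 1 rat 4 (2.571) and sham rat 2 (2.556), values near the control ProbeSets.

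Of 49 comparisons between days over the 7 ProbeSets, 5 passed the threshold in limma's fit, while 21.2% to 35.4% of all genes passed it in each of the comparisons but day 56 against day 14 (0.338%). Prx was 1.737 higher on day 56 than on day 1, and Pmp22 was 0.7456 higher on day 56 than on day 1, 0.7131 higher by its second ProbeSet, and 0.5828 higher on day 7 than on day 3. The second ProbeSet of Egr2 was 0.07487 higher on day 14 than on day 7, at a level below the control ProbeSets.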

How the results depend on the processing

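No called result changed direction under any setting run. Of the member comparisons under other settings, 500 kept their side of the threshold, 6 gained a call and 9 lost one. Of the counts of the gene lists 380 stayed within 1.5 times and 40 did not. In fits of 2 groups alone, Prx on day 56 was 1.58 against sham (limma adjusted p = 0.136) and 1.74 against day 1 (0.125), Pmp22 on day 56 against day 1 was 0.75 (0.095) and on day 7 against day 3 0.58 (0.0562), none of them called, while Pmp22 on day 7 against sham passed it (0.43, 0.00767), as did Ngfr on day 56 against day 1 (−0.62, 0.0329). Pmp22 on day 7 against day 3 also missed it without moderation of the variance (0.58, 0.053), after quantile normalization (0.57, 0.0506), as the mean of its ProbeSets (0.52, 0.0948) and without the 3 arrays with muscle transcripts (0.59, 0.14). Pmp22 on day 14 against day 1 passed it after quantile normalization (0.64, 0.0332) and with a group mean of at least 5 (0.54, 0.0436), Pmp22 on day 7 against sham as the mean of its ProbeSets (0.64, 0.0292), and Egr2 on day 7 against day 1 with trend and robust moderation (−1.22, 0.049).

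Rats of the same number in different groups deviated with r of −0.657 to 0.452 (mean −0.0316, 60 pairs). Those of different number did so with r of −0.523 to 0.591 (mean 0.0105, 180 pairs), so no pairing by number was seen. With the replicate number as a block, Pmp22 on day 7 against day 3 was 0.58 (limma adjusted p = 0.0574), 27 genes were called on day 56 against day 14 in place of 48, and no other member call changed.

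The number of all genes called on day 14 against day 7 was 3981, and 268 after quantile normalization, 1111 after median centring, 70 with a group mean of at least 5 and 1483 without the 3 arrays. On day 7 against day 1 it was 3009, and 164 in a fit of 2 groups, 4619 with trend and robust moderation, 4624 without moderation and 430 without the 3 arrays. On day 56 against day 14 it was 48, and 9 in a fit of 2 groups and 29 without moderation. Median centring moved the share of up-regulated genes among those called to 30.7% on day 14 against day 7, where it was 77.9%, and to 42.6% on day 7 against day 1, where it was 29.1%; quantile normalization moved it to 43.3% on day 56 against day 14, where it was 56.2%. Keeping group means of at least 5 moved it to 21.4% on day 14 against day 7, 41.1% on day 7 against day 1, 45.9% on day 56 against day 14 and 60.3% on day 7 against sham, where it was 43.9%, and the fit of 2 groups moved it to 22.2% on day 56 against day 14. The causes were not tested.

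With each rat left out in turn, the lowest and highest changes were 0.97 and 2.13 for Prx on day 56 against sham, 1.13 and 2.29 against day 1, 0.60 and 0.77 for Pmp22 on day 14 against sham, 0.39 and 0.71 on day 14 against day 1, 0.45 and 0.73 on day 7 against day 3, −1.29 and −0.50 for Egr2 on day 3 against day 1, −1.62 and −0.83 on day 7 against day 1, 0.14 and 0.58 for Erbb3 on day 3 against sham, and 0.94 and 1.115, 0.92 and 1.32, 0.73 and 1.11 for Ngfr on days 1, 3 and 14 against sham. Between 1 and 2 of the 5 genes were then called on day 1 and 1 and 3 on day 14, and 1195 to 4955 of all genes on day 7 against day 1 and 21 to 45 on day 56 against day 14.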

Other observations

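A list of 18 genes of immature and repair Schwann cells, of which 16 were measured, held 5, 5, 4, 4 and 5 up-regulated and 3, 3, 5, 1 and 2 down-regulated genes on days 1, 3, 7, 14 and 56, with medians between −0.07 and 0.03. The 5 down-regulated on day 7 became 1 after quantile normalization or median centring, and 2 with a group mean of at least 5. Ccl2, a monocyte chemokine (6.10 to 10.75), Nes, nestin (1.80 to 4.22), and Vim, vimentin (1.27 to 2.24), were up-regulated on all 5 days, and the matrix protein gene Tnc on days 1 to 14 (5.74 to 7.51) but not on day 56 (1.43). L1cam, an axonal and Schwann cell adhesion molecule, was down-regulated on all 5 days (−2.96 to −1.01), and Gap43 was up-regulated on days 1 and 3 only (0.76 and 1.72). Reactive astrocytes, macrophages and injured neurons are known to express several of these genes, and the part of each cell type was not tested.

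Proliferation genes were highest early: 11, 6, 10, 7 and 4 of 11 were up-regulated on days 1, 3, 7, 14 and 56, with medians of 5.16, 1.58, 1.90, 1.38 and 0.51. Of 9 measured genes of oligodendrocyte precursors 3, 0, 4, 2 and 5 were up-regulated and 1, 4, 1, 0 and 3 down-regulated, with Cspg4 higher on days 1, 7, 14 and 56 (1.79, 1.06, 0.98 and 1.60). Of 12 endothelial and pericyte genes 3, 3, 1, 1 and 1 were up-regulated and 1, 1, 4, 1 and 1 down-regulated. The 4 down-regulated on day 7 became 2 after quantile normalization, after median centring or with a group mean of at least 5.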
